A study of Mus musculus with 2 samples.

Results

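A set of 7 genes of dendritic cell growth, identity and maturation were described in bulk RNA of adult mouse thymus: the growth factor gene Flt3l, its receptor gene Flt3, and Zbtb46, Sirpa, Wdfy4, Cd83 and Fscn1. They were chosen by name from a list of symbols, with earlier results of these data known, and are 7 of the 43346 gene rows of the deposited tables. For 6 of the 7, the gene ID matched that of the symbol in GENCODE M21, a mouse gene annotation. Flt3l was found through a transcript, as described with its values. The data are 2 libraries of polyadenylated RNA. Their source was thymus of the inbred strain C57BL/6J at an age of 8 weeks. They are replicates 1 and 2 of a single group with no treatment named, each labelled as pooled from male and female animals, with littermates named as the source and the same donor entry for both. The series therefore holds no second tissue, age, genotype or treatment to set the genes against, and the values are levels and differences between the 2 libraries, with no p-value. The labels give separate biosamples, but not how many animals were pooled or whether the same animals gave both, so the spread between libraries may be technical in part.

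Dendritic cells take up antigen and present it to T cells, and in the thymus they take part in the deletion of self-reactive thymocytes and in the formation of regulatory T cells. They are divided into conventional dendritic cells of type 1 and type 2 and plasmacytoid dendritic cells. Their development depends largely on the receptor tyrosine kinase FLT3 and its ligand. Mature conventional dendritic cells change shape, gain co-stimulatory molecules and the chemokine receptor CCR7, and are found mainly in the thymic medulla. A whole thymus is mostly thymocytes, so a dendritic cell transcript is measured there against a large amount of other RNA. In bulk tissue, fewer cells of a type and less RNA per cell cannot be told apart.

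All 7 genes were measured above 1 TPM, a level per transcript length scaled to the same sum in each library, in both libraries. They fell into 3 ranges: the Flt3l row and Fscn1 above 100 TPM, Cd83, Sirpa and Wdfy4 between 15 and 60 TPM, and Flt3 and Zbtb46 below 5 TPM. The median of the 7 mean levels was 48.6 TPM, against 15.5 TPM for the 12949 protein-coding genes whose mean reached 1 TPM. That contrast rests on counting the whole Flt3l row. With the only Flt3l transcript matched by ID in its place, an alternative chosen after seeing the data, the median was 15.9 TPM. The libraries held 48.6 and 62.1 M fragments over genes. Of these, 30403 and 43279 estimated fragments fell on the 7 genes.

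**Figure D1:**
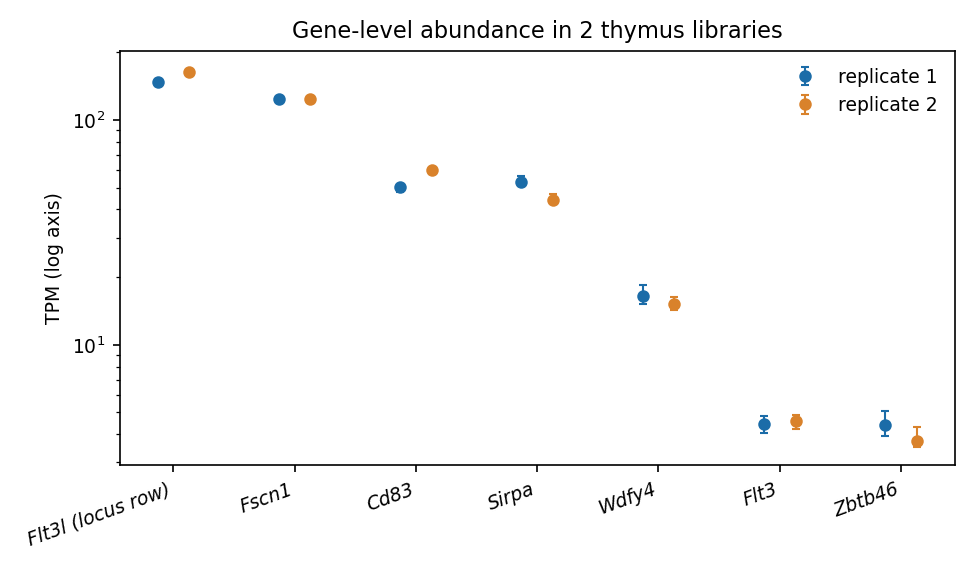
Level of each gene in replicate 1 (blue, left) and replicate 2 (orange, right), in TPM on a log axis, with bars for the interval bounds deposited by the authors. Mean levels run from 156 TPM for the Flt3l row to 4.06 TPM for Zbtb46, and the library values of neighbouring genes overlap only for Cd83 and Sirpa.

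Several genes of the list are spliced in more than 1 way, and the sequences below mark the places where their annotated transcripts part. Each was read from the GENCODE M21 transcripts (build GRCm38), 5′ to 3′. For Sirpa, the exon 2 to exon 3 junction joins chr2:129609231-129609260 to chr2:129615447-129615476 on the plus strand, and the skipping junction joins the same exon 2 end to exon 5 at chr2:129618457-129618486; capitals mark the bases after the junction.
Sirpa-201, exon 2 to exon 3: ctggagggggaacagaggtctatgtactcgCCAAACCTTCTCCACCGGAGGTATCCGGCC
Sirpa-202, exon 2 to exon 5: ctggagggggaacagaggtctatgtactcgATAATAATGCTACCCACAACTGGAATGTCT
Exon 7 of Sirpa-201 ends with a 12-base segment, in capitals, that Sirpa-214 leaves out (chr2:129627946-129627997, plus strand).
Sirpa-201, end of exon 7: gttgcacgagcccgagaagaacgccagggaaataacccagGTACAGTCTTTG

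For Flt3, exon 9 ends at chr5:147366919-147366948 on the minus strand. It is joined to exon 10 (chr5:147358022-147358051) in Flt3-201, the transcript of the full receptor, and to a last exon of its own (chr5:147365046-147365075) in Flt3-202, which is annotated without a coding sequence. Capitals mark the bases after the junction.
Flt3-201, exon 9 to exon 10: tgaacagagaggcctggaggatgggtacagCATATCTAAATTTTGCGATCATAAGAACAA
Flt3-202, exon 9 to its last exon: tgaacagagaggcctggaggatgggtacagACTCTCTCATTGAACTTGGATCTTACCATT
For Zbtb46, exon 3 (from chr2:181411696-181411725, minus strand) is joined to exon 4 (chr2:181395596-181395625) in Zbtb46-201, and is read on without splicing in Zbtb46-202 (chr2:181411666-181411725). Capitals mark the bases after the end of exon 3.
Zbtb46-201, exon 3 to exon 4: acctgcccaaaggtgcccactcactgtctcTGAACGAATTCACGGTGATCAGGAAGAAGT
Zbtb46-202, exon 3 read on: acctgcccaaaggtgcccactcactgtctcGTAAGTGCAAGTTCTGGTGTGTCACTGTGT

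For Flt3l, exon 4 (chr7:45135122-45135151, minus strand) is joined to exon 5 (chr7:45134487-45134516) in the coding transcript Flt3l-201. In Flt3l-207, annotated as a retained intron, the bases before exon 5 are intron (chr7:45134487-45134546). Capitals mark the bases before exon 5.
Flt3l-201, exon 4 to exon 5: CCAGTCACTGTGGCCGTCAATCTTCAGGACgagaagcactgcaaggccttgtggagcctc
Flt3l-207, intron to exon 5: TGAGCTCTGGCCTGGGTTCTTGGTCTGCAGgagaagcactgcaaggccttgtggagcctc

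Flt3l encodes the cytokine that drives dendritic cell development from bone marrow progenitors. The gene lies at chr7:45129788-45136432 on the minus strand (GRCm38), and its M21 ID heads no row of the deposited gene tables. Its transcript Flt3l-201 stands there under a gene ID that M21 names Gm45713, a read-through model that shares Flt3l exons and runs on into exons of Rpl13a, a ribosomal protein gene. Of the 9 transcripts in that row, Flt3l-201 matched by ID, 7 others had exactly the length of an M21 Flt3l transcript, and the last, of 810 bases, matched none. A match by length alone does not identify a transcript, so the row is called the Flt3l row here.

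The Flt3l row had 148 TPM in replicate 1 and 164 TPM in replicate 2, from 5147 and 8264 estimated fragments. Its mean of 156 ± 11.2 TPM (SD, n = 2) was above that of 92.8% of the protein-coding genes with at least 1 TPM. Replicate 2 was the higher of the 2. Most of that level did not lie on transcripts of protein-coding length. The transcript of 718 bases, the length of the retained-intron transcript Flt3l-207, took 38.9% and 36.8% of the row's TPM. The transcript of 2482 bases, the length of the retained-intron transcript Flt3l-213, took 21.0% and 24.0%. Together the transcripts of retained-intron length had 88.8 and 99.7 TPM, or 59.9% and 60.8% of the row. The 4 transcripts matched to protein-coding ones (Flt3l-201 by ID, 3 by length) had 34.4 and 41.8 TPM, or 23.2% and 25.4%. Those with the length of transcripts annotated for nonsense-mediated decay, the removal of messages with an early stop codon, had 15.3 and 13.9 TPM. The 2 libraries thus gave nearly the same partition.

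Flt3l-201 itself, the transcript whose ID leaves no doubt, had 7.86 TPM (deposited bounds 5.69 and 9.99) in replicate 1 and 6.44 TPM (4.82 and 7.96) in replicate 2. These bounds overlap. The level of the ligand gene is therefore between 7.15 ± 1.00 TPM by this transcript alone and 156 TPM by the whole row. By estimated fragments in place of TPM, the longer of the retained-intron lengths led the row, with 48.1% and 52.4%.

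Flt3 encodes the receptor tyrosine kinase on early progenitors and dendritic cells that binds this cytokine (chr5:147330741-147400489, minus strand). It had 4.46 TPM in replicate 1 and 4.58 TPM in replicate 2, a mean of 4.52 ± 0.0849 TPM (SD, n = 2). The libraries held 548 fragments (95% Poisson interval 503 to 596) and 794 fragments (740 to 851). The gene stood above 22.9% of the protein-coding genes with at least 1 TPM, in the lower part of the distribution. Flt3-201 took 80.4% and 76.9% of its level, and Flt3-202, which parts from it after exon 9, took 19.1% and 18.7%. A further transcript with no M21 match had 0.02 and 0.20 TPM, on 3.82 and 47.7 estimated fragments. Gm26597, an annotated antisense gene over the start of Flt3, had 0.16 and 0.03 TPM, and the labels call the libraries stranded.

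The Flt3l row stood 34.5 ± 1.82 times above Flt3 in TPM (33.2 and 35.8 in the libraries), while Flt3l-201 alone stood 1.58 ± 0.252 times above it. Among the related class III receptors, Csf1r, the receptor of macrophage growth factor, had 23.4 and 27.9 TPM, or 5.66 ± 0.596 times the Flt3 level. Kit, the stem cell factor receptor, had 7.05 and 6.78 TPM, or 1.53 ± 0.0710 times the Flt3 level. Of the 9 class III receptor and ligand genes, all had at least 1 TPM, with a median of 9.26 TPM. Il34, another ligand of the Csf1r product, had 19.2 and 23.0 TPM, and Kitl, the ligand of the Kit product, had the lowest mean, at 1.39 and 1.51 TPM. Kitl thus stood below its receptor gene, at 0.210 ± 0.0181 times the level of Kit.

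The genes listed for FLT3 signalling were measured in full. All 20 had at least 1 TPM, with a median of 44.3 TPM. The median was 3.30 TPM over all 21474 protein-coding genes and 15.5 TPM over the 12949 whose mean reached 1 TPM. Socs1, a feedback inhibitor of cytokine signalling, was the highest of the 20 at 781 and 545 TPM. The kinase gene Akt1 had 192 and 174 TPM, and the transcription factor genes Stat5b and Stat5a had 171 and 141 TPM and 135 and 107 TPM. The adaptor gene Gab2 was the lowest at 2.63 and 2.98 TPM. Between the libraries 2 of the 20 differed by at least 1.5-fold, both with replicate 1 higher, close to the 12.0% of all genes at 1 TPM or more that did so. These genes also serve many other receptors, and thymocytes express several of them.

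Zbtb46 encodes a zinc finger repressor that marks conventional dendritic cells in the mouse and is also made by endothelial cells (chr2:181387762-181459426, minus strand). It had 4.38 TPM in replicate 1 and 3.74 TPM in replicate 2, from 558 and 767 fragments, a mean of 4.06 ± 0.453 TPM (SD, n = 2). It was the lowest of the 7, above 20.9% of the protein-coding genes with at least 1 TPM. Replicate 1 was higher in TPM, but in CPM, fragments scaled to the library total with no regard to length, the order turned, with 11.5 CPM in replicate 1 and 12.3 CPM in replicate 2. The deposited effective length of the gene, by which TPM divides, was 3632 bases in replicate 1 and 4223 bases in replicate 2.

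The mixture of Zbtb46 transcripts also differed between the libraries. Zbtb46-201, of 5 exons, took 52.1% and 68.4% of the level, and Zbtb46-202, which stops after exon 3, took 19.2% and 27.1%. Zbtb46-205, which starts at exon 2, took 27.4% in replicate 1 and 2.41% in replicate 2. It had 1.20 TPM on 75.9 estimated fragments in replicate 1, with deposited bounds of 0.589 and 1.82 TPM, and 0.09 TPM on 7.76 fragments in replicate 2, with an upper bound of 0.603 TPM. These bounds overlap narrowly.

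The RefSeq start of Zbtb46 (GRCm38.p6) is the first base of Zbtb46-205 and also the first base of exon 2 of Zbtb46-201, at position 181424388 of chromosome 2. The 40 bases around it are shown for that reason (chr2:181424379-181424418, minus strand), with the AG just before the start in capitals; introns nearly always end in AG.
Zbtb46-205, start: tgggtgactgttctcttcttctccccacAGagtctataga

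Sirpa encodes an inhibitory receptor of myeloid cells and type 2 conventional dendritic cells that binds CD47 on other cells (chr2:129592835-129632228, plus strand). It had 52.95 TPM in replicate 1 and 44.23 TPM in replicate 2, from 5257 and 6701 fragments, a mean of 48.6 ± 6.17 TPM (SD, n = 2). Replicate 1 was higher in TPM by 1.20-fold, while both libraries held 108 CPM, with a CPM ratio of 1.00 (95% interval 0.968 to 1.04, counting error only). Its deposited effective length was 2832 bases in replicate 1 and 3116 bases in replicate 2.

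Sirpa had the most annotated transcripts of the 7 genes, 14, of which 11 were above 0. Sirpa-214 led with 45.8% and 41.6% of the level. Sirpa-201 took 11.5% and 25.4%: it had 6.07 TPM (deposited bounds 3.57 and 7.63) in replicate 1 and 11.3 TPM (8.46 and 12.4) in replicate 2, which do not overlap. Sirpa-202 took 15.0% and 12.4%. The transcripts that skip exons 3 and 4, of 318 and 336 bases and coding for immunoglobulin domains, had 8.03 TPM in replicate 1 and 5.88 TPM in replicate 2. Among ID-matched transcripts that cover this region, skipping took 19.0% and 14.9%, a mean of 17.0% ± 2.91 (SD, n = 2). Transcripts with the 12-base segment had 14.3 and 16.7 TPM, against 27.9 and 22.7 TPM without it, so that it was included in 33.8% and 42.4%. The order of these forms was the same in both libraries: full ectodomain above skipped, and the segment more often left out than included.

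**Figure D2:**
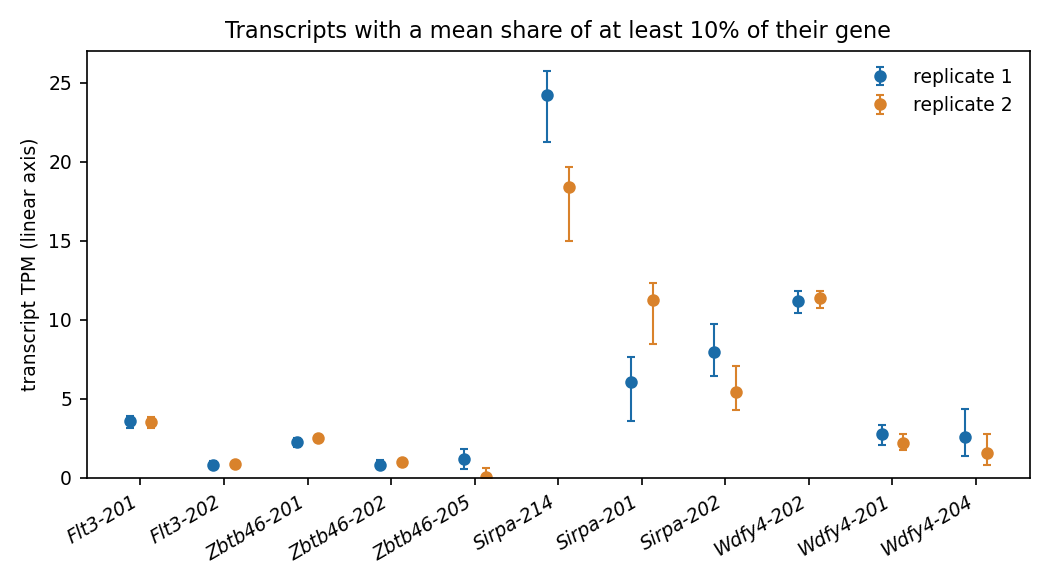
Level of each transcript with a mean share of at least 10% of Flt3, Zbtb46, Sirpa or Wdfy4, in TPM on a linear axis, in replicate 1 (blue, left) and replicate 2 (orange, right), with the interval bounds deposited by the authors. Flt3-201 and Flt3-202 sit at the same level in both libraries, whereas the bounds of Sirpa-201 are 3.57 to 7.63 TPM in replicate 1 and 8.46 to 12.4 TPM in replicate 2.

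Of the 8 genes listed for ligands and partners of SIRPA or of related receptors, 7 had at least 1 TPM, with a median of 56.0 TPM. Tyrobp, an adaptor of activating myeloid receptors, had 205 and 294 TPM. Ptpn6, the phosphatase SHP-1 that SIRPA recruits, had 178 and 166 TPM, and the adaptor gene Fyb had 134 and 111 TPM. Cd47, the gene of the ligand, had 86.95 and 85.95 TPM, or 1.79 ± 0.213 times the level of Sirpa. Sftpd, a lung surfactant protein that also binds SIRPA, was the lowest at 0.51 and 0.56 TPM. The related genes were nearly silent: Sirpb1a had 0.22 and 0.62 TPM, Sirpb1b 0.07 and 0.31 TPM, and Sirpb1c 0.24 and 0.09 TPM, on 2.78 to 21.1 estimated fragments. Sirpb1 genes are close copies of each other, so how their fragments were divided is uncertain.

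Wdfy4 encodes a very large BEACH domain protein that mouse type 1 conventional dendritic cells need to cross-present antigen from other cells (chr14:32959547-33185508, minus strand). It had 16.6 TPM in replicate 1 and 15.2 TPM in replicate 2, from 4785 and 6464 fragments, a mean of 15.9 ± 0.976 TPM (SD, n = 2). It stood in the middle of the expressed protein-coding genes, above 50.5% of them. Wdfy4-202, deposited with 10033 bases, took 67.6% and 75.2% of the level, and Wdfy4-201 took 16.7% and 14.4%. Wdfy4-204, of 347 bases, took 15.7% and 10.4% of the TPM on 12 and 10 fragments, which were 0.251% and 0.155% of the gene's fragments. Lrrc18, which lies within Wdfy4 on the other strand and shares no exon with it, had 0.42 and 0.45 TPM.

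Of the 8 other BEACH domain genes, 7 had at least 1 TPM, with a median of 12.1 TPM. Nbeal2, which platelets and neutrophils need for their granules, was the highest at 264 and 247 TPM. Nsmaf had 57.7 and 58.0 TPM, and Wdr81 44.8 and 41.0 TPM. Lyst, a lysosome trafficking gene, had 13.8 and 12.9 TPM, next to Wdfy4 in level. Nbea, a mainly neuronal gene, was the lowest at 0.46 and 0.58 TPM.

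Wdfy4 acts in the pathway that loads antigen on class I molecules, and the 18 genes of that list all had at least 1 TPM, with a median of 156 TPM. The class I chain gene H2-K1 had 1174 and 1448 TPM, and B2m, the light chain, 930 and 1009 TPM. Rac2, a small GTPase gene, had 929 and 844 TPM, and the class I chain gene H2-D1 had 731 and 837 TPM. Cybb, the phagocyte oxidase subunit, was the lowest at 2.75 and 3.06 TPM. Most of these genes act in nearly all cells, so their level does not belong to dendritic cells alone.

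Cd83 encodes an immunoglobulin family protein of mature dendritic cells that stabilises class II molecules and CD86 at the surface, and thymic epithelium also makes it (chr13:43784775-43803132, plus strand). It had 50.1 TPM in replicate 1 and 59.7 TPM in replicate 2, from 3388 and 5593 fragments, a mean of 54.9 ± 6.78 TPM (SD, n = 2). Replicate 1 was lower by every scaling, with a log2 ratio of -0.25 in TPM and of -0.37 in CPM. The CPM ratio was 0.775 (95% interval 0.742 to 0.809, counting error only), so the libraries differed beyond counting error. In CPM, the same held for the Flt3l row (0.769 to 0.825), Flt3 (0.790 to 0.986), Wdfy4 (0.912 to 0.983) and Fscn1 (0.910 to 0.957). The CPM intervals of Zbtb46 and Sirpa included an equal level. This split depends on the scaling, whose error the intervals do not cover. With edgeR and DESeq2 library scaling, the log2 ratios were -0.0009 and 0.009 for Wdfy4 and -0.02 and -0.01 for Fscn1. For Sirpa they were 0.08 and 0.09. The single transcript of Cd83, Cd83-201, held all of its level. Fragments of Cd83 were whole numbers in both libraries, as for 5 of the 7 genes (within 0.005).

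The gene lists went either way between the libraries. The log2 ratio, replicate 1 over replicate 2, had a median of -0.26 over the 8 genes shared by conventional dendritic cells, whose summed levels were 5627 and 7088 TPM. It was -0.28 over the 10 macrophage and monocyte genes at 1 TPM or more, with sums of 873 and 1209 TPM over all 11. The median was -0.17 over the 7 thymic epithelium genes, with sums of 502 and 569 TPM. Over the 6 thymocyte genes it was 0.06, with sums of 3069 and 3020 TPM. It was 0.29 over the 7 B cell genes, with sums of 96.0 and 78.8 TPM, 0.19 over the 16 dendritic cell transcription factor genes and 0.19 over the 6 granulocyte genes. For the other dendritic cell lists, over genes at 1 TPM or more, it was -0.16 for mature and -0.24 for type 1 cells. For type 2 and plasmacytoid cells it was -0.02 and 0.06. Of these lists, only Clec4a4 of type 2 cells was at 0. The part of these genes in the Cd83 difference was not tested.

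The 5 measured genes related to CD83 in function all had at least 1 TPM, with a median of 17.2 TPM, and covered a wide range. The class II chain genes H2-Ab1 and H2-Aa had 2137 and 2977 TPM and 857 and 1070 TPM. Elavl1, the RNA-binding protein HuR that takes part in the export of CD83 message in human cells, had 19.6 and 14.9 TPM. Cd86, a co-stimulatory ligand, had 8.97 and 12.0 TPM. March1, the ubiquitin ligase that removes class II and CD86 from the surface, was the lowest at 1.87 and 1.86 TPM.

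Fscn1 encodes fascin, an actin-bundling protein that shapes the projections of mature dendritic cells and is also made by several other cell types (chr5:142960343-142973185, plus strand). It had 124 TPM in both libraries, from 10720 and 14696 estimated fragments, a mean of 124 ± 0.148 TPM (SD, n = 2). Of the 7 genes, its TPM ratio between the libraries, 1.00, was the nearest to equal. It stood above 90.5% of the protein-coding genes with at least 1 TPM. Fscn1-201 held 100% and 99.0% of the level. The other fascin genes were nearly silent, with 0.30 and 0.15 TPM for Fscn2, of the retina and inner ear, and 0 and 0.15 TPM for Fscn3, of the testis. Fascin transcripts in this tissue were thus almost entirely those of Fscn1. Fscn1 stood 2.28 ± 0.284 times above Cd83, the other maturation gene of the list.

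**Figure D3:**
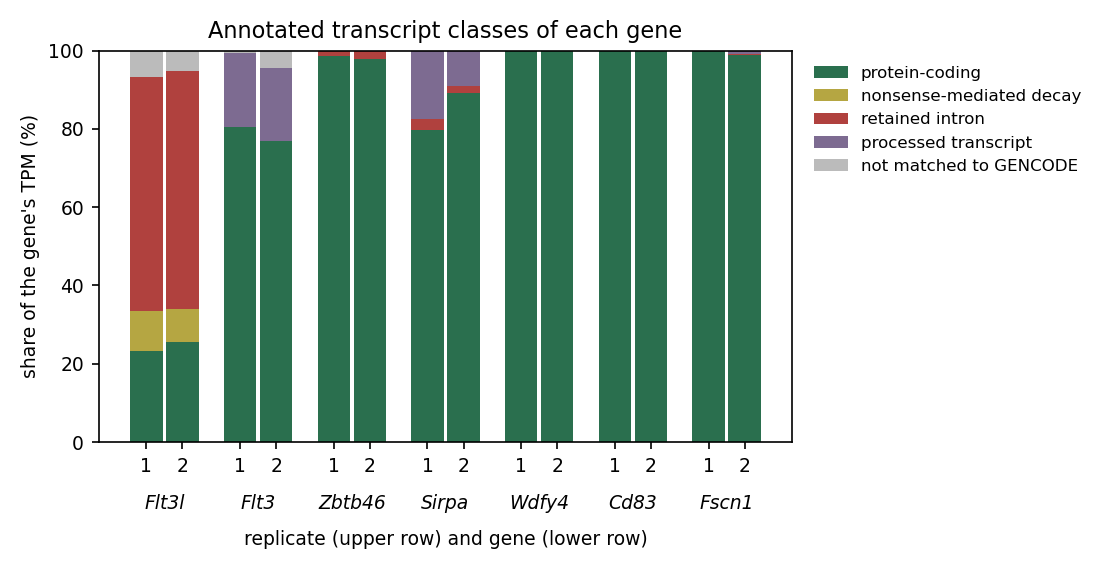
Share of each gene's TPM by annotated transcript class, as stacked bars from 0 to 100% for replicate 1 (left) and replicate 2 (right) of each gene; classes of the Flt3l row rest on transcript length, Flt3l-201 aside. Retained-intron lengths make up 59.9% and 60.8% of the Flt3l row. Wdfy4 and Cd83 have only transcripts annotated as protein-coding, so their 100% is set by the annotation.

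In the order of mean levels, the Flt3l row was followed by Fscn1, Cd83, Sirpa, Wdfy4, Flt3 and Zbtb46, with 38.5-fold between the ends. Of the neighbours in this order, Cd83 and Sirpa did not differ beyond their spread: Sirpa was the higher in replicate 1 and Cd83 in replicate 2. Flt3 stood above Zbtb46 in both libraries, by 1.11-fold in the means, but their deposited bounds overlapped. With Flt3l-201 in place of the Flt3l row, the ligand fell between Wdfy4 and Flt3.

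Of the 7 genes, 0 differed by 1.5-fold or more between the libraries, on a scale of TPM with 0.1 added. Over all 14360 genes whose mean reached 1 TPM, 12.0% did so, so a count of 0 among 7 genes is not far from the share of all genes. Their TPM ratios, replicate 1 over replicate 2, lay between 0.839 for Cd83 and 1.20 for Sirpa. The median size of the log2 ratio was 0.15 for the 7 and 0.21 for all of these genes. By TPM, 4 genes were higher in replicate 1 and 3 in replicate 2. The direction held under each scaling tried for Cd83 (lower in replicate 1) and Sirpa (higher in replicate 1, by 0.01 to 0.26 on the log2 scale), and it turned under at least 1 scaling for Zbtb46, Wdfy4 and Fscn1. The Flt3l row and Flt3 were lower in replicate 1 under each scaling of the whole row, but higher when only the ID-matched protein-coding transcripts were counted, by 0.28 and 0.02 on the log2 scale; for Flt3l that is Flt3l-201 alone.

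Of the 42 annotated transcripts of the 7 genes, 34 were above 0 in at least 1 library and 24 had a mean of at least 1 TPM. Of these 24, 8 differed by at least 1.5-fold, 5 of them of Sirpa, 2 of the Flt3l row and 1 of Wdfy4. Over all 31189 transcripts at that level, 23.0% did so. The transcript with the largest share was the same in both libraries for all 7 genes.

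**Figure D4:**
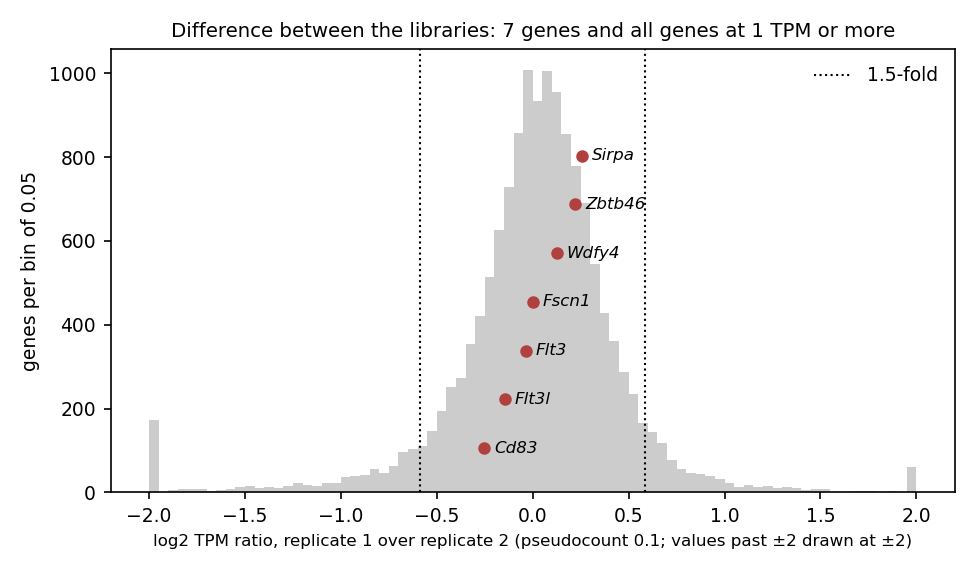
Number of genes by log2 TPM ratio, replicate 1 over replicate 2, for all genes whose mean reached 1 TPM (grey, bins of 0.05), with the 7 genes as red points at heights chosen for legibility and dotted lines at 1.5-fold. All 7 points lie between the lines, from a ratio of 0.839 for Cd83 to 1.20 for Sirpa.

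The lists of dendritic cell genes place these levels among those of the cells they belong to. Of the 8 genes shared by conventional dendritic cells, all had at least 1 TPM, with a median of 16.7 TPM. Cd74, the invariant chain of class II, was the highest at 2590 and 2989 TPM, and Ciita, the master regulator of class II genes, had 20.2 and 19.2 TPM. Bcl11a, a transcription factor gene, was the lowest at 2.30 and 2.15 TPM. Class II genes are also made by B cells, macrophages and thymic epithelium.

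For type 1 conventional dendritic cells, 12 of 13 genes had at least 1 TPM, with a median of 12.5 TPM. The transcription factor genes Irf8 and Id2 had the highest means, with 83.8 and 80.7 TPM and 77.4 and 67.3 TPM. Ppt1, a lysosomal thioesterase, had 66.6 and 68.3 TPM, and Naaa, a lysosomal amidase, had 30.4 and 40.0 TPM. Cadm1, Xcr1 and Clec9a lay below the median, with 4.94 and 6.15, 3.63 and 5.53, and 1.68 and 2.36 TPM. Gcsam was the lowest at 0.45 and 0.76 TPM. Wdfy4, at 15.9 TPM, lay near the middle of this list. How much of these levels came from type 1 cells was not tested.

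For type 2 conventional dendritic cells, 11 of 12 genes had at least 1 TPM, with a median of 5.24 TPM. Cd7 had 32.9 and 43.5 TPM and Notch2 25.2 and 19.2 TPM, both also expressed outside this cell type. Klf4 had 9.44 and 7.91 TPM, and the integrin gene Itgam 8.80 and 6.32 TPM. Clec4a4 was at 0 fragments in both libraries, where the limit that a count of 0 allows is 3 fragments per library. Sirpa, at 48.6 TPM, stood above all 12 genes of this list.

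For plasmacytoid dendritic cells, all 13 genes had at least 1 TPM, with a median of 29.3 TPM. Ly6d, Ccr9, Bst2 and Irf7 had the highest means, with 1094 and 876, 426 and 488, 374 and 367, and 189 and 225 TPM. Thymocytes also express the chemokine receptor gene Ccr9, and many cells express the interferon-responsive Bst2 and Irf7. How much of these levels, that of Ly6d included, came from plasmacytoid cells was not tested. Tlr7, a sensor of RNA, was the lowest at 2.10 and 1.45 TPM.

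For mature dendritic cells, all 23 genes had at least 1 TPM, with a median of 17.9 TPM, and both Cd83 and Fscn1 stood above it. The chemokine gene Ccl5 was the highest at 441 and 613 TPM. Ccr7, which brings cells to the medulla, had 169 and 190 TPM, or 3.28 ± 0.144 times the level of Cd83; thymocytes also make it. Marcksl1 had 159 and 120 TPM, and Ccl22, a chemokine gene of mature dendritic cells, 91.1 and 96.5 TPM. Slco5a1 had the lowest mean, at 2.76 and 2.86 TPM.

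Of 16 transcription factor genes of dendritic cell development, all had at least 1 TPM, with a median of 50.2 TPM, against 4.06 TPM for Zbtb46. Ikzf1, which is needed in all lymphocytes, was the highest at 771 and 508 TPM. Gfi1 had 200 and 176 TPM, and Bcl6 96.8 and 80.95 TPM. Nfil3, upstream of type 1 conventional dendritic cells, was the lowest at 2.08 and 2.25 TPM.

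**Figure D5:**
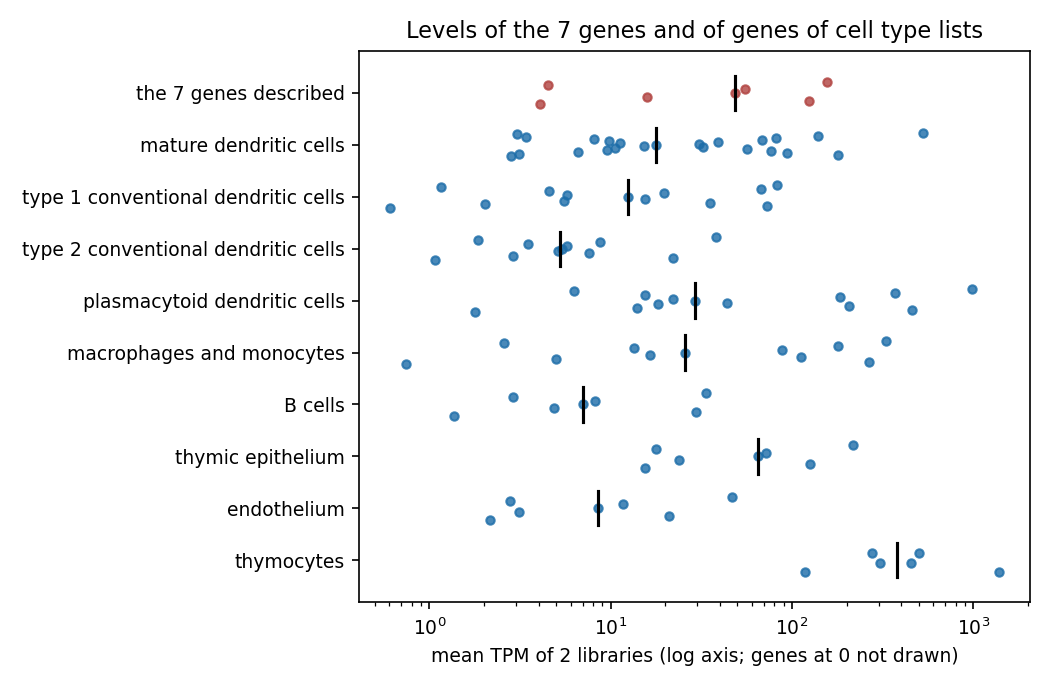
Mean TPM of the 2 libraries (log axis) for the 7 genes (red, top) and for the genes of cell type lists (blue), with 1 point per gene, an arbitrary vertical offset and a black line at each median. Zbtb46 and Flt3, at 4.06 and 4.52 TPM, lie at the low end of the top row, and the thymocyte genes have the highest median, 379 TPM.

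Among the markers of other cells of the organ, the 6 thymocyte genes had a median of 379 TPM, with Lck at 1327 and 1454 TPM. The labelled tissue thus carried its defining markers, and Foxn1, the regulator of thymic epithelium, had 22.7 and 24.6 TPM. The 7 epithelium genes had a median of 64.7 TPM, the 11 macrophage and monocyte genes 25.6 TPM (10 of them at 1 TPM or more), and the 6 granulocyte genes 12.3 TPM. The 6 fibroblast genes had 11.3 TPM, the 7 endothelium genes 8.52 TPM, the 7 B cell genes 7.01 TPM and the 6 progenitor genes 5.72 TPM (4 at 1 TPM or more). The 6 genes of neurons and glia had 1.22 TPM, with 3 at 1 TPM or more and Snap25 at 0.07 and 0.06 TPM. Several of these cells express some of the 7 genes as well: macrophages Sirpa, endothelium Zbtb46 and Fscn1, and B cells and epithelium Cd83. How much of each level came from which cell was not tested.

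The genes of all these lists that lay closest in their levels to each of the 7 were found by the distance between their log2 TPM values over the 2 libraries. For Flt3 they were the progenitor gene Meis1 (3.85 and 5.18 TPM) and Skap2 (5.07 and 5.34 TPM), and for Zbtb46 Mycl (3.59 and 4.07 TPM) and Clec10a (3.42 and 3.61 TPM), genes of conventional dendritic cells. For Cd83 they were Relb (55.0 and 57.7 TPM), the factor that drives dendritic cell maturation, and Tapbpl (53.8 and 53.3 TPM). For Sirpa they were the endothelium gene Pecam1 and Rab43, of the class I loading list. For Wdfy4 they were the granulocyte gene S100a8 and Socs2, of the mature dendritic cell list. For Fscn1 they were Stat3, of the FLT3 signalling list, and the thymic epithelium gene Krt5. The Flt3l row lay closest to Calr and Tap1, of the class I loading list. Only the 204 distinct genes of these lists were searched, and several of the lists are of dendritic cell genes. With 2 libraries of 1 tissue, this likeness is one of level alone.

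RefSeq start windows (GRCm38.p6, 250 bases before to 50 after the start) were found for 5 of the 7 genes; Cd83 and Sirpa had none in the table used. They were searched on both strands for 6 motifs, chosen after the windows had been seen. The window of Fscn1, the gene with the highest level among those matched by gene ID, held a cAMP response element (TGACGTCA, in 1.79% of all 32851 windows) followed by a TATA box (TATAAA, in 13.6%). That of Flt3, near the lowest, held an E-box (CACGTG, in 7.15%) and, on the other strand, a short ETS core (GGAAGT, in 23.8%). Their sequences are shown for that contrast, with the motifs in capitals, for Fscn1 from chr5:142960105-142960404 (plus strand) and for Flt3 from chr5:147400440-147400739 (minus strand).
Fscn1, start window: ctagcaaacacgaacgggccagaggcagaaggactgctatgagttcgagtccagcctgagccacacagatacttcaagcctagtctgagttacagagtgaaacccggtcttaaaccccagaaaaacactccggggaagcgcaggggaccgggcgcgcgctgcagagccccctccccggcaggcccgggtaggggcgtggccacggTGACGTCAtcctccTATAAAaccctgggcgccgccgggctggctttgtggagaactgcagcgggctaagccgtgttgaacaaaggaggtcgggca
Flt3, start window: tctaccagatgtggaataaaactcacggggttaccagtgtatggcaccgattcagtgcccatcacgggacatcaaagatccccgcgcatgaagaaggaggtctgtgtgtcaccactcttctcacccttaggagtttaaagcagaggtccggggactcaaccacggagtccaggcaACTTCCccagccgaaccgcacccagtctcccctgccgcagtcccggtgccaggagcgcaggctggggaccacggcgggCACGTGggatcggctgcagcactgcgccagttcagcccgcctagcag

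Wdfy4 also held GGAAGT, the Flt3l window held a GC box (GGGCGG, in 35.7%) on the other strand, and the Zbtb46 window held none of the 6. That Zbtb46 window surrounds the first base of exon 2 of Zbtb46-201. It does not cover the start of the transcripts that begin at exon 1, which took 72.6% and 97.6% of the Zbtb46 level. No window of the 5 held GAGGAAGT, a longer ETS site that contains GGAAGT and was in 3.20% of all windows. The share of G and C was 61.7% for Fscn1, 61.0% for Flt3, 54.3% for both Flt3l and Wdfy4 and 50.7% for Zbtb46, against a median of 52.7% over all windows. A match of letters is a description and not a bound site.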

How the data were processed

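Each library came with a deposited table of genes and another of transcripts. Per the file headers, the deposited columns hold expected counts (estimated fragments per feature), TPM, posterior mean values and feature lengths, bounds of a TPM interval (a signal in TPM whose level is not stated in the deposited files) and, for transcripts, the percent of the gene's TPM. Per the text files deposited with the samples, quantification used mm10 and GENCODE M4; quantifier and aligner were not given in the sources used here. How shared fragments were divided is not stated either. Lists of contigs and junctions on mm9 were not used, since the gene models used are on GRCm38.

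Of 43346 gene rows, 42462 matched GENCODE M21 by gene ID without its version. Means and SDs cover the 2 libraries. Shares were recomputed from transcript TPM. Ratios are replicate 1 over replicate 2 on log2(TPM + 0.1), which understates low genes; a difference was called at 1.5-fold. Depth was 48.6 and 62.1 M fragments, whose 95% intervals (exact Poisson, and exact binomial for ratios) cover counting error only. The median chi-square over 19362 genes with at least 10 fragments was 5.48; sampling noise alone gives 0.455, and the samples were treated as separate libraries. The ratio computation was tested on simulated data. With 1 group, no test between conditions was made and no p-value is given.

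The 7 genes and the gene lists were chosen with earlier results of these data known. Named are the 7 genes, the 4 highest genes and the lowest of each other list (fewer where space did not allow), all genes of lists of 3 or fewer, the 2 list genes nearest each of the 7 in level, and transcripts with a mean share of at least 10%. Foxn1, Cadm1, Xcr1, Clec9a and the genes of the closing observations were named outside that rule, after their values were seen. Of 221 list entries, 220 matched. Alternatives were another unit, rescaling over protein-coding genes, protein-coding transcripts alone, other pseudocounts and filters, edgeR and DESeq2 library scaling of the estimated counts rounded to whole numbers, and leaving out each library. Scaling used edgeR 4.0.16 and DESeq2 1.42.0 under R 4.3.3. The rest was done in Python 3.11.15 with pandas 2.3.3, numpy 2.4.6 and scipy 1.17.1, and figures with matplotlib 3.10.9.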

Additional observations from a re-analysis of the deposited data

How the results depend on the processing

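All 7 genes kept a mean of at least 1 TPM, and 0 of the 7 passed 1.5-fold between the libraries, under each alternative run; at a threshold of 5 TPM, 5 of the 7 remained. The median level of the 7, 48.6 TPM, was 101 CPM, 63.5 TPM rescaled over protein-coding genes, and 15.9 TPM both with only the transcripts matched by ID as protein-coding and, in an alternative chosen after seeing the data, with Flt3l-201 in place of the Flt3l row. With either library left out it lay between 44.23 and 50.13 TPM. Of the 21 pairs of genes, 18 kept their order of level in CPM, 16 with protein-coding transcripts alone, 17 with Flt3l-201 for the Flt3l row, and 20 to 21 with a library left out. The share of all genes past 1.5-fold, 12.0%, was 7.86% at a mean of at least 5 TPM and 22.5% with no filter. By share of fragments, 6 of the 7 genes kept their leading transcript, the exception being the Flt3l row. Rescaling over protein-coding genes multiplied TPM by 1.27 and 1.35. No paired analysis was possible because there is only 1 group. The main limits are the 2 libraries, the length-only matches of Flt3l and, for short or rare transcripts, few fragments.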

Other observations

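Cox6a2, a cytochrome oxidase subunit of muscle that plasmacytoid dendritic cells also make, had 25.3 TPM in replicate 1 and 342 TPM in replicate 2, from 393 and 7344 fragments. It was noticed after the values of the plasmacytoid list had been seen. By TPM, the other 12 genes of that list did not pass 1.5-fold between the libraries. Most genes did not: 12.0% of all genes at 1 TPM or more passed it. Siglech and Spib, named here for that comparison, had 17.1 and 13.7 TPM and 29.95 and 28.7 TPM. The unit matters for Tlr7, with 2.10 and 1.45 TPM but 2.24 and 4.04 CPM, on 109 and 251 fragments.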
